A study of Mus musculus with 7 samples.

Results

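The genes described here are 6 that mark the epithelium of the choroid plexus, namely Ttr, Calml4, Folr1, Clic6, Kl and Enpp2. They were chosen by name, and every probe whose platform annotation carries one of these symbols was taken. Of 25697 probes on the array, 7 were for these genes and covered 5 of the 6, since Enpp2 names no probe in that annotation. A probe entered the test when it was detected, with a detection p below 0.05, in at least 3 of the 7 arrays. This left 5 probes for 4 of the 6 genes, Ttr, Calml4, Clic6 and Kl, among 14067 tested probes.

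The samples were total RNA of arcuate nucleus tissue, the part of the mediobasal hypothalamus that borders the floor of the third ventricle. All mice were male C57BL/6J animals of 40 weeks, moved from chow at 8 to 10 weeks to high-fat food (45% of energy as fat) and kept on it for 30 weeks. One group was Dusp8-deficient (4 mice) and the other was littermate controls (3 mice), with 1 bead array per mouse. Dusp8 encodes a phosphatase that acts on mitogen-activated protein kinases, and the sources used here do not give how the gene was altered. Arrays are called as in the deposited signals. Those of Dusp8-deficient mice are ko_108, ko_125, ko_148 and ko_168, and the control arrays are wt_136, wt_145 and wt_177. Nothing in the labels gives the dissection day or the slide.

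The choroid plexus is a tuft of vessels covered by a secretory epithelium that hangs into the ventricles and makes cerebrospinal fluid. Its epithelial cells are known for very strong transcription of Ttr, whose product transthyretin carries thyroxine and, with retinol-binding protein, retinol. They also carry folate into the fluid through the receptor Folr1, release the klotho protein encoded by Kl, and secrete autotaxin, the enzyme encoded by Enpp2 that makes lysophosphatidic acid. Clic6 belongs to the chloride intracellular channel family, and Calml4 encodes a calmodulin-like protein of microvillus-bearing epithelia. The plexus is not part of the arcuate nucleus, so these genes can report on neighbouring tissue in a dissected sample. Kl is also known in neurons, and Enpp2 in oligodendrocytes.

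Between 12295 and 13976 probes were detected per array, with mean signals of 58.0 to 74.9 units. The targeted gene separated the groups as labelled, since the deposited Dusp8 signal was 77 to 104 units with the gene deficient and 540 to 624 in controls. Its log2 difference was -2.52 (SE 0.23, adjusted p = 0.00963, limma), and it was the 1 probe that passed, or 0.00711% of those tested. Array ko_108 stood apart, with the lowest mean signal and 17 tested oligodendrocyte and myelin genes whose mean level relative to the average array was 1.05 on the log2 scale, against -0.51 to 0.07 elsewhere.

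None of the 4 tested genes passed the test between Dusp8-deficient and control mice (limma with Benjamini-Hochberg adjustment over all 14067 probes), and none of their 5 probes had an unadjusted p below 0.05, as 4.81% of all tested probes did. Ttr, Calml4 and Clic6 had the higher mean in the Dusp8-deficient arrays and Kl in the controls, by its brighter probe. Calml4 was detected in 3 Dusp8-deficient arrays and 1 control, so it entered the test through the group where it was higher. For comparison, 49.6% of all 9720 tested genes had the higher mean in the Dusp8-deficient arrays. The groups overlapped for all 4 genes, while they did not overlap for 5.27% of tested genes. The median log2 difference was 0.07 over the 4 genes and -0.0021 over all tested genes. Without wt_145, 1 of the 4 genes was higher instead of 3.

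**Figure D1:**
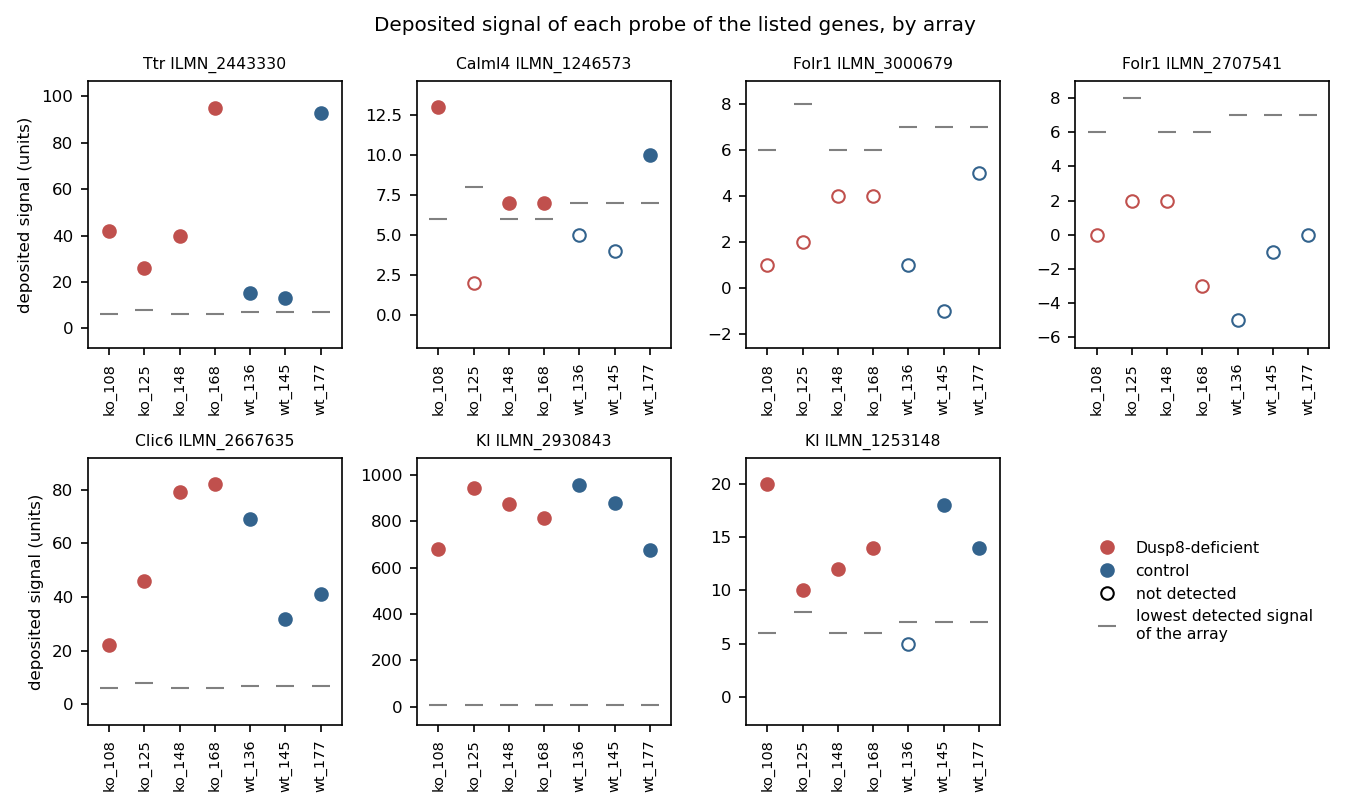
Deposited signal in units of every probe of the listed genes (vertical axes, 1 panel per probe, each with its own scale) in each of the 7 arrays (horizontal axes). Open points were not detected and grey bars mark the lowest detected signal of each array. Ttr stands at 95 and 93 units in ko_168 and wt_177, and neither Folr1 probe is detected anywhere.

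Ttr, the thyroxine carrier that dominates the transcripts of choroid plexus epithelium, was detected in all 7 arrays by its 1 probe, ILMN_2443330. In the Dusp8-deficient arrays its deposited signal was 42 units in ko_108, 26 in ko_125, 40 in ko_148 and 95 in ko_168. In the controls it was 15 units in wt_136, 13 in wt_145 and 93 in wt_177. Thus 1 array of each genotype held the high values, and the lowest values were those of the other 2 controls. Normalised Ttr averaged 5.91 ± 0.70 log2 units (SD, n = 4) in Dusp8-deficient mice and 5.57 ± 1.18 (SD, n = 3) in controls.

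The Ttr log2 difference of 0.35 (SE 0.53) had a 95% interval from -0.85 to 1.54, that is from lower to higher in Dusp8-deficient mice (limma, adjusted p = 0.996, and exact permutation p = 0.571, two-sided, over the 35 splits of 4 against 3 arrays). The smallest p these splits allow is 0.0286. The estimate depended on single arrays, at 1.03 without wt_177, 0.04 without ko_168, 0.01 without wt_136 and -0.0049 without wt_145. In the authors' processed values of replicates 1 to 3, which leave out the last Dusp8-deficient sample, it was 0.05. In tissue RNA, fewer cells of a type and less RNA per cell cannot be told apart.

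Ttr was among the most variable genes between arrays. Its normalised level spanned 2.07 log2 units, or 4.19-fold, and its deposited signal 7.31-fold. Only 1.06% of tested genes had a larger standard deviation over the 7 arrays. The spread lay within the genotypes, as the values of both groups ran from the low to the high end.

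Clic6 was also detected in all 7 arrays, by its 1 probe ILMN_2667635. Its deposited signal was 22 units in ko_108, 46 in ko_125, 79 in ko_148 and 82 in ko_168. The controls gave 69 units in wt_136, 32 in wt_145 and 41 in wt_177. All control values fell inside the range of the Dusp8-deficient arrays. Its normalised level was 6.05 ± 0.61 (SD, n = 4) against 5.97 ± 0.37 (SD, n = 3), a log2 difference of 0.08 (SE 0.34, 95% interval -0.67 to 0.83, limma, adjusted p = 0.996). That difference was -0.12 without ko_168, -0.06 without ko_148 and -0.10 without wt_145.

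Kl encodes a membrane protein whose shed ectodomain circulates and which acts as co-receptor for fibroblast growth factor 23. It was read by 2 probes of the same transcript accession, and their array orders were unlike each other. The brighter probe ILMN_2930843 read 681 units in ko_108, 944 in ko_125, 873 in ko_148 and 813 in ko_168, and 958 in wt_136, 879 in wt_145 and 678 in wt_177. The dimmer probe ILMN_1253148 read 20, 10, 12 and 14 units in ko_108, ko_125, ko_148 and ko_168, and 5, 18 and 14 units in wt_136, wt_145 and wt_177. Thus ko_125 and wt_136, which were highest on the brighter probe, were lowest on the dimmer one, where wt_136 was not detected. In normalised values the brighter probe was steadier between arrays than most genes, as 94.4% of tested genes had a larger standard deviation.

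Both Kl probes left the genotypes close together. The log2 difference was -0.05 (SE 0.19, 95% interval -0.49 to 0.38) for the brighter probe and 0.06 (SE 0.25, 95% interval -0.51 to 0.62) for the dimmer one (limma, adjusted p = 0.996 for each). These intervals bound a change in Kl, on the brighter probe, more tightly than the change in Ttr. The sign of the brighter probe turned to 0.01 without ko_168, and that of the dimmer probe to -0.07 without ko_108 and -0.15 without wt_136.

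Calml4 lay at the edge of detection on its 1 probe, ILMN_1246573. The signal was 13 units in ko_108, 2 in ko_125, 7 in ko_148 and 7 in ko_168, and 5 in wt_136, 4 in wt_145 and 10 in wt_177. It was detected in ko_108, ko_148, ko_168 and wt_177, so it entered the test through the Dusp8-deficient arrays. The lowest detected signal of the 7 arrays was 6 to 8 units. The log2 difference was 0.06 (SE 0.22, 95% interval -0.43 to 0.56, limma, adjusted p = 0.996). Its highest value was in ko_108, the array with the high myelin genes, and without that array the difference was -0.06. The part of the myelin signal in this result was not tested.

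Folr1, the folate receptor of the epithelium, was not above background in any array. Its probe ILMN_3000679 ran from 1 to 4 units with Dusp8 deficient and from -1 to 5 among controls. The other probe, ILMN_2707541, ran from -3 to 2 units and from -5 to 0 units. No fold is given, since both groups were below background on both probes.

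**Figure D2:**
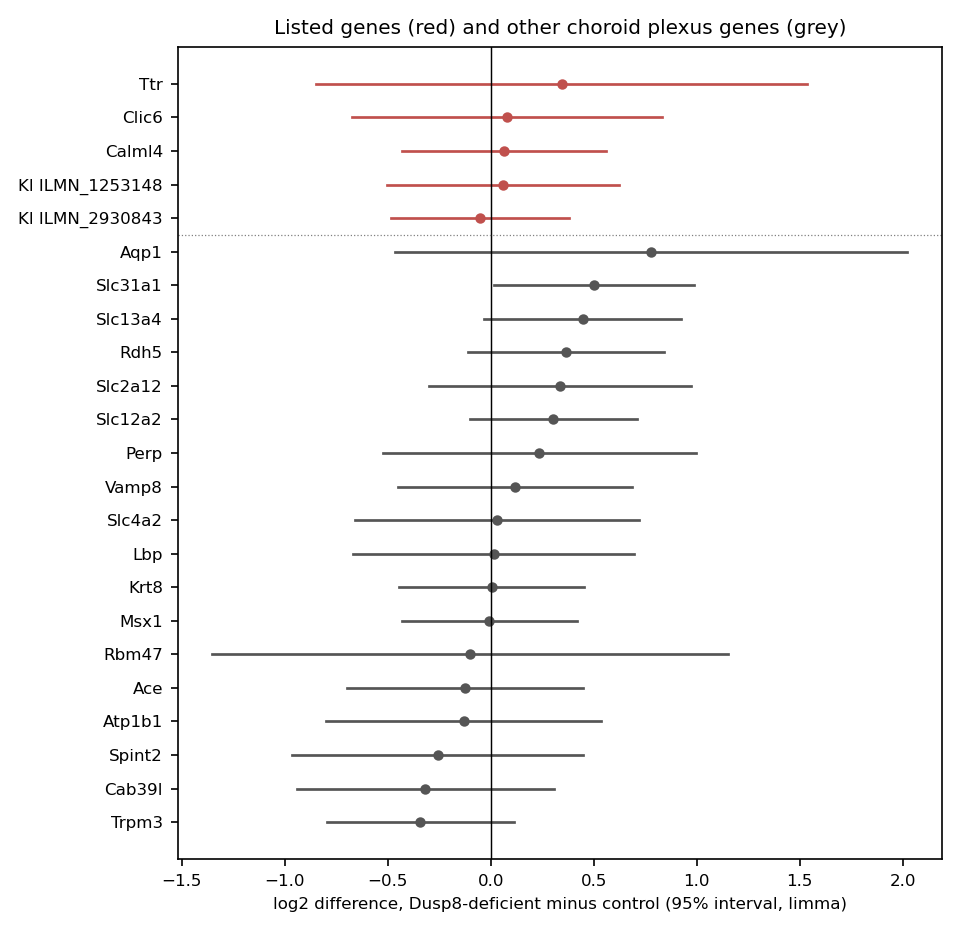
Log2 difference between Dusp8-deficient and control arrays (horizontal axis, point) with its 95% interval from limma (line) for the 5 tested probes of the listed genes (red) and for 18 other tested choroid plexus genes, each by its brightest probe (grey). All intervals of the listed genes cross 0, and the Ttr interval is the widest of them, from -0.85 to 1.54.

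Whether the samples carried choroid plexus epithelium was examined with 43 other genes of that epithelium. Of the 36 with a probe, 18 were detected often enough to be tested and 18 were not. The list was not ranked by how well a gene marks the epithelium. No array detected Otx2, the transcription factor that maintains the epithelium, Sostdc1, a secreted antagonist of bone morphogenetic protein and Wnt signalling, Tmem72, F5, Krt18, Cdh3, Mfrp, Steap1, Col8a2, Cox8b or Oca2. The 14 probes of these 11 genes ran from -13 to 6 units over all arrays. Kcne2, a potassium channel subunit of the apical membrane, Cldn2, its tight junction claudin, Lmx1a, Ecrg4 and Car12 were detected in 1 array each, and Htr2c and Slc39a4 in 2.

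The summed signal of these 18 untested genes, each by its brightest probe, ran from 10 to 48 units with Dusp8 deficient and from -6 to 36 among controls. For the 11 genes detected nowhere it was -9 to 13 and -18 to -13 units. Over the 18 tested genes the sums were 3231 to 4733 and 3396 to 4264 units, and these genes include widely expressed transporters such as Slc12a2 and Atp1b1. Of the arrays with high Ttr, ko_168 was the 1 with detected Lmx1a (29 units), and wt_177 had detected Htr2c (12 units) and Slc39a4 (32 units), while neither had detected Otx2, Sostdc1, Kcne2 or Folr1. Kcne2 and Car12 were detected in wt_136 (12 units each), which had 15 units of Ttr. Of the 36 genes of that epithelium with a probe, 18 were tested, among them Aqp1 and Slc13a4, and 18 were not. Kcnj13, Slc4a5 and Prlr had no probe. The markers thus differed among themselves, and the 6 genes are called by their symbols here. A probe below background does not show that its transcript was missing, and the part of choroid plexus tissue in the Ttr values was not tested.

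Among the 18 tested genes of that epithelium, 11 had the higher and 7 the lower mean in Dusp8-deficient mice. Of all tested genes, 49.6% had the higher mean there. None of the 18 passed (limma), and 1 had an unadjusted p below 0.05, beside 4.45% of all tested genes. The median log2 difference was 0.02, beside -0.0021 over all tested genes, and 1 gene, Slc12a2, had groups that did not overlap (5.27% of all tested genes), with a second tested probe that overlapped and read -0.08. Slc31a1, a copper transporter, gave the smallest p. It read 12 to 23 units with Dusp8 deficient and 14, 2 and 2 in wt_136, wt_145 and wt_177. The last 2 values were below background, so it entered the test through the Dusp8-deficient arrays. Its log2 difference was 0.50 (SE 0.22, limma, adjusted p = 0.996). Slc13a4, a sulfate transporter, read 305 to 500 units against 244 to 414 (log2 difference 0.45, SE 0.21). The water channel gene Aqp1 spanned -1 to 93 units with Dusp8 deficient and -1 to 45 among controls. The count of higher genes was 14 of 18 without ko_108, 9 without ko_148 and 7 without wt_145.

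These genes did not track Ttr closely. Over the 7 arrays their median Pearson correlation with Ttr was 0.04, beside -0.00042 for all 9713 genes that varied, and none of the 18 reached 0.8, as 1.85% of all genes did. Aqp1 was highest in ko_148 at 93 units and at -1 in wt_177, where Ttr was at 93. Slc2a12, a sugar transporter, was the nearest of them (r = 0.73), followed by the retinol dehydrogenase gene Rdh5 (r = 0.64). These correlations rest on 7 arrays that share one normalisation and are descriptions.

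**Figure D3:**
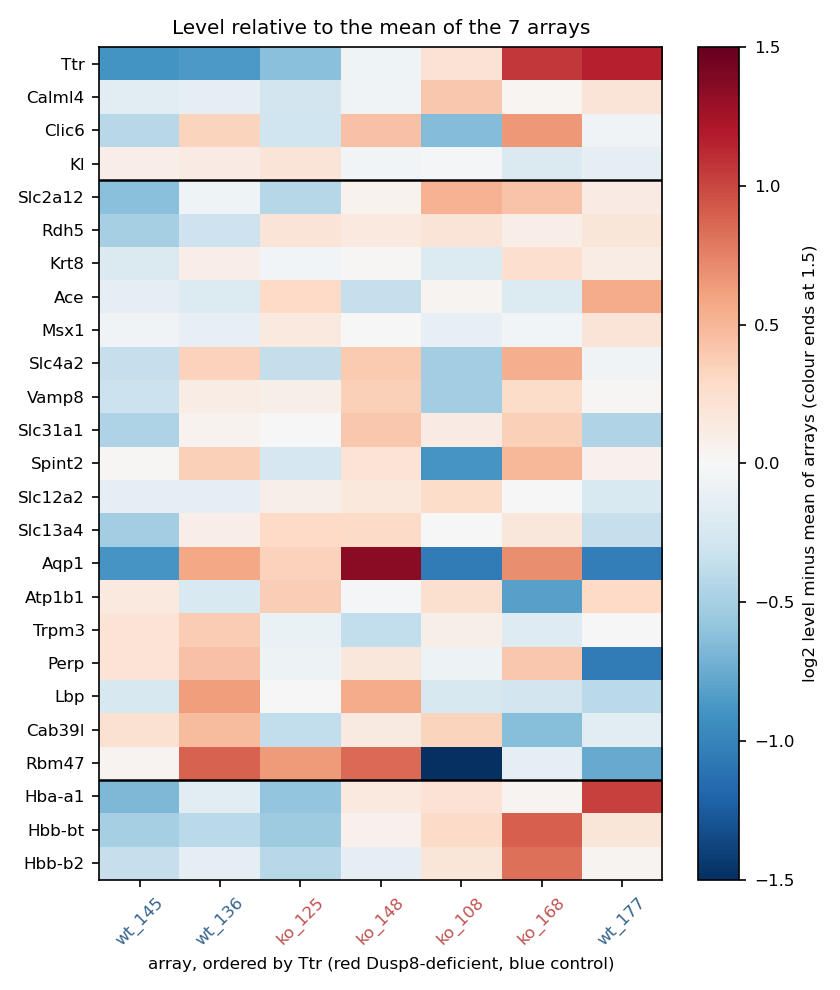
Normalised log2 level minus the mean of the 7 arrays (colour) for the 4 listed genes that were tested, 18 other choroid plexus genes ordered by their correlation with Ttr, and 3 haemoglobin genes (rows), with arrays in order of Ttr (columns). Ttr rises from wt_145 to wt_177, while Aqp1 and Rbm47 are low in wt_177 and the haemoglobin genes are low where Ttr is low.

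Within the list, the tested genes differed in how they followed Ttr. Calml4 had r = 0.66 with Ttr (exact permutation p = 0.109, 7 arrays) and a Spearman rho of 0.79 (exact permutation p = 0.0480, two-sided). After Benjamini-Hochberg adjustment over the 3 relations these were 0.163 and 0.0720, and r was 0.82 without wt_177 and ko_168, the arrays farthest from the Ttr median. Clic6 had r = 0.28 (exact permutation p = 0.511, adjusted 0.511) and rho = 0.29 (exact permutation p = 0.556, adjusted 0.556), and r was -0.17 without those 2 arrays. Calml4 was below background in ko_125, wt_136 and wt_145, the arrays with the lowest Ttr. Its coefficients therefore rest partly on the order of background values.

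Kl ran opposite to Ttr on its brighter probe, with r = -0.92 (exact permutation p = 0.00536, adjusted 0.0161) and rho = -0.79 (exact permutation p = 0.0480, adjusted 0.0720) over 7 arrays. Without wt_177 and ko_168 r was -0.81, and with group means removed it was -0.92. With the arrays scaled to equal medians in place of quantile normalisation, r was -0.62 (exact permutation p = 0.120), so the relation did not hold under both scalings. The dimmer Kl probe had the opposite sign, with r = 0.48 and rho = 0.25 over the same arrays, given as a description. The Kl range behind it was small, 0.41 log2 units or 1.33-fold. Each genotype holds too few arrays for a value within it.

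**Figure D4:**
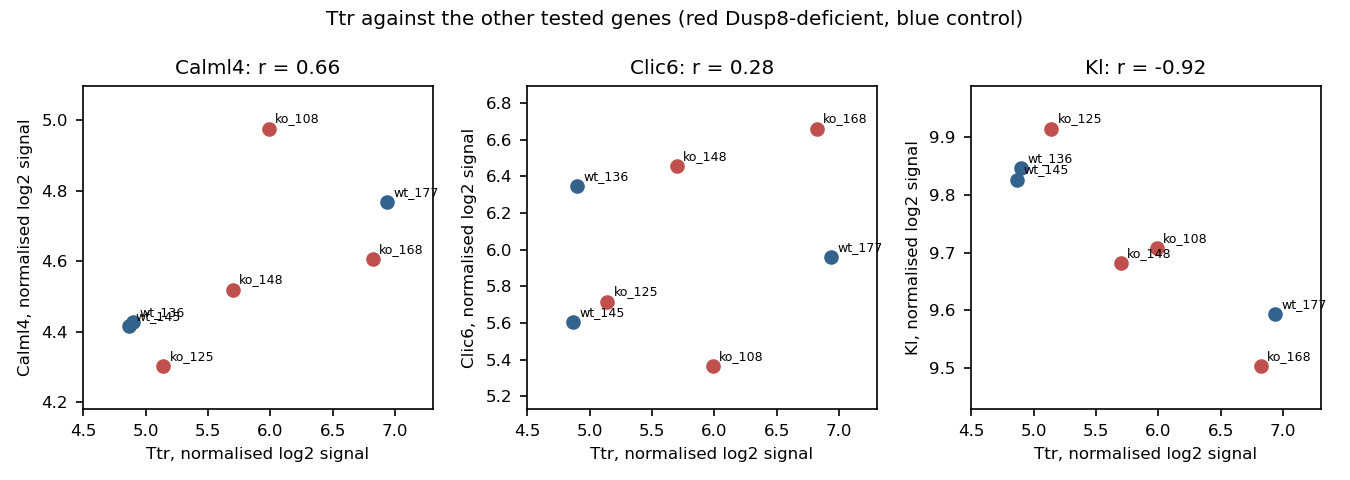
Normalised log2 signal of Ttr (horizontal axes) against Calml4, Clic6 and the brighter Kl probe (vertical axes) in the 7 arrays, with r the Pearson correlation. Kl falls from 9.91 in ko_125 to 9.50 in ko_168 as Ttr rises from 5.14 to 6.82.

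Markers of other tissues around the third ventricle were set beside the Ttr values, each as the list's mean level relative to the mean of the arrays. The ependymal list, cells that line the ventricle, was highest in wt_145 (0.28) and at 0.18 in ko_168 and 0.07 in wt_177. Tanycytes, the elongated glia of the ventricle floor, were highest in ko_125 (0.40), with -0.04 in ko_168 and -0.14 in wt_177. Meningeal fibroblast genes were highest in wt_136 (0.25) and lowest in wt_177 (-0.33). Pituitary genes were highest in ko_125 (0.95), with 0.13 in ko_168 and -0.37 in wt_177. So none of these 4 lists was highest in an array with high Ttr.

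The red blood cell list did follow the Ttr order at its ends. Its 3 tested haemoglobin genes stood at 0.59 in ko_168 and 0.42 in wt_177, and at -0.51 in ko_125, -0.51 in wt_145 and -0.24 in wt_136. Of the 3 genes, 2 had r of at least 0.8 with Ttr, beside 1.85% of all genes. Normalised Hbb-bt and Hbb-b2 put the 7 arrays in the same order, so these genes are not independent. Hba-a1 read 44 units in wt_177 and 2 in wt_145, and Hbb-bt read 36 units in ko_168 and 4 in wt_145. All are dim, with Hbb-b2 between -3 and 24 units, and Alas2, the erythroid haem synthesis enzyme, was detected in 1 of 7 arrays. The part of blood in the Ttr values was not tested.

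The 8 genes whose levels over the 7 arrays were most like Ttr were Rlim, an E3 ubiquitin ligase (r = 0.97), Gpr108 (0.97), Rgs7, a regulator of G protein signalling in neurons (0.96), the histone gene H4c3 (0.96), Amz2 (0.96), the receptor tyrosine kinase gene Alk (0.95), Zfp870 (0.94) and Dstn, which encodes an actin-depolymerising factor (0.94). In all, 31 of 9713 genes had r of at least 0.9 with Ttr. For the mean of the 4 tested genes, each scaled to unit variance, the most alike were Prcp (0.98), Cbln1, a secreted synapse organiser (0.97), Chst8 (0.97), Ascc1 (0.97), Cpa5 (0.97), the G protein subunit gene Gng13 (0.95), Leo1 (0.95) and Nav1 (0.95). Of all genes, 35 reached 0.9 with that mean, among them Slc2a12 of the choroid plexus genes (0.90). Both sets of 8 are the highest of 9713 correlations over 7 arrays and are descriptions. How many genes would reach 0.9 by chance was not tested.

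Partners of transthyretin came next. Of 22 genes for thyroid hormone and retinol carriers, transporters and receptors, 11 were tested. Beside 49.6% of all tested genes higher in Dusp8-deficient mice, 7 of the 11 had the higher and 4 the lower mean. None of the 11 passed. Their median log2 difference was 0.33, beside -0.0021 over all tested genes, and 2 had an unadjusted p below 0.05, as 4.45% of all tested genes did. That median was 0.17 without ko_108, 0.18 with an offset of 50 and 0.03 without the filter on dim probes. Rbp4, the retinol-binding protein that travels with transthyretin in plasma, read 39, 75, 56 and 31 units in ko_108, ko_125, ko_148 and ko_168 and 22, 23 and 28 units in the controls. In normalised values these groups did not overlap, as for 5.27% of all tested genes, and the log2 difference was 0.62 (SE 0.22, 95% interval 0.14 to 1.10, limma, adjusted p = 0.996). Rbp4 was highest in ko_125, where Ttr was at 26 units. The large amino acid transporter gene Slc7a5, whose product also moves thyroid hormones, read 0.57 (SE 0.25) and Rxrb, a retinoid X receptor, 0.53 (SE 0.25). A second Rxrb probe was not tested. The retinol-binding protein receptor gene Stra6 and the deiodinase gene Dio2 were detected in no array.

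Of 10 tested folate genes beside Folr1, 5 were higher and 5 lower, where 49.6% of all tested genes were higher. None passed (limma), and 0 had an unadjusted p below 0.05, as 4.45% of all tested genes did. The median log2 difference was -0.0011. The other uptake routes were near background, as Folr2 was detected in no array, the reduced folate carrier gene Slc19a1 in 1 and the proton-coupled folate transporter gene Slc46a1 in 2. The genes of smallest p were Atic (-0.18), Fpgs (0.31), which adds glutamates to folate, and Ggh (0.23), which removes them. Atic was detected in 2 Dusp8-deficient arrays and 3 controls, so it entered the test through the controls, where it was higher. Ggh was detected in 4 Dusp8-deficient arrays and 2 controls. A dimmer Fpgs probe read -0.05.

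Of 10 tested klotho partners, 6 were higher and 4 lower, beside 49.6% of all tested genes higher. None passed (limma), and 0 had an unadjusted p below 0.05, as 4.45% of all tested genes did. The median log2 difference was 0.16. Without wt_145 it was -0.04, with 4 of 10 higher, without ko_108 0.06, and without the filter on dim probes -0.02. Fgfr3, a fibroblast growth factor receptor, read -0.61 (SE 0.29) and -0.27 on a second probe, Slc20a1, a phosphate transporter, 0.33 (SE 0.18), and Adam17, a sheddase that can cleave klotho, 0.42 (SE 0.24). The Fgfr3 probe at -0.61 was detected in 2 Dusp8-deficient arrays and 3 controls, so it entered the test through the controls, where it was higher. The groups of Slc20a1 did not overlap, as for 5.27% of all tested genes. The related co-receptor gene Klb was detected in no array.

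Around autotaxin, which has no probe named here, 8 of 12 tested genes of lysophosphatidic acid synthesis, reception and breakdown were higher and 4 lower. Of all tested genes, 49.6% were higher. None of the 12 passed (limma), and 0 had an unadjusted p below 0.05, as 4.45% of all tested genes did. The median log2 difference of the 12 was 0.14. Without wt_177 it was -0.03, with 6 of 12 higher. The receptor genes Lpar1 (0.58, SE 0.27) and Lpar6 (0.48, SE 0.23) had the smallest p, and the normalised Lpar6 groups did not overlap (5.27% of all tested genes). Lpar6 was dim, at 18 to 41 units with Dusp8 deficient and 16, 7 and 17 in wt_136, wt_145 and wt_177. It was detected in 4 Dusp8-deficient arrays and 2 controls. Gde1, a phosphodiesterase gene, read -0.24 by its brightest probe, with 0.01 and 0.02 by the rest.

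For Clic6, none of the 3 relatives with a probe was tested. Of 5 tested calmodulins and microvillus partners of Calml4, 2 were higher and 3 lower, beside 49.6% of all tested genes higher. None passed (limma), and 0 had an unadjusted p below 0.05, as 4.45% of all tested genes did. The median log2 difference was -0.09. Without ko_168, and in the processed values of replicates 1 to 3, all 5 were higher and the median was 0.07. Those replicates leave out the last Dusp8-deficient sample. Ush1c, a scaffold of microvillus links, read 0.46 (SE 0.31), the protocadherin gene Cdhr2 -0.16 and the membrane-actin linker gene Ezr -0.13.

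The RefSeq promoter table (GRCm38.p6, 250 bases before to 50 after the start) holds 2 of the 6 genes, Kl and Calml4. Both are shown because they are the listed genes with an entry. The core letters TAATCC of Otx factors and TGTTTAC of forkhead factors were searched on both strands, and neither window holds either, so no letter is in capitals. Of 27025 promoters of that length, 7.16% hold TAATCC and 3.55% hold TGTTTAC. The Kl window is chr5:150952357-150952656 and the Calml4 window chr9:62857854-62858153, both on the plus strand. The Calml4 window begins after the listed start of that gene, so it does not cover that start. No build is named for the listed gene starts.
Kl: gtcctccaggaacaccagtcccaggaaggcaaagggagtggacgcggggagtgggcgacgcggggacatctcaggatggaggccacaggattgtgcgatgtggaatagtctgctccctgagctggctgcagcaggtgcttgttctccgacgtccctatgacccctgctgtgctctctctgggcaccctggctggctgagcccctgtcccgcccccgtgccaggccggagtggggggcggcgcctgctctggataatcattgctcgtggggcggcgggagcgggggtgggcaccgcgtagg
Calml4: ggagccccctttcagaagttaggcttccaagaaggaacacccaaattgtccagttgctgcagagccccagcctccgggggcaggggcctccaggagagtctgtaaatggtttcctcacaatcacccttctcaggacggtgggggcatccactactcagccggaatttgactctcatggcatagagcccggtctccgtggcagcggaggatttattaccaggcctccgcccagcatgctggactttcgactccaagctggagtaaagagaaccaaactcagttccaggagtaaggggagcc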

How the data were processed

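Amplified, biotin-labelled RNA was hybridised to Illumina bead arrays, per the labels and probe identifiers. The deposited intensities are non-normalized, per the file headers, and already lack a background, as negative values show. The sources used here do not give that method. The authors deposited with them a detection p-value of each probe on each array. Their processed table holds rounded linear intensities with a median of 21 in each column and was used as an alternative. Array headings carry the genotype but no replicate number.

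Intensities were corrected and quantile-normalised on the log2 scale with neqc (offset 16) of limma 3.58.1 in R 4.3.3. Probes detected (p below 0.05) in at least 3 of 7 arrays entered lmFit and eBayes (Dusp8-deficient minus control), and p was adjusted by Benjamini-Hochberg over 14067 probes. The brightest tested probe stood for a gene in lists. Correlations had exact permutation p-values. The fit was tested on simulated data. Probe names came from the platform annotation (23978 named, 1719 unnamed, 16 IDs not in the reference table).

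The 6 genes and the lists were chosen with earlier results of these data known. Named genes are the 6, Dusp8, the 8 most correlated with Ttr and with the mean of the tested members, tested choroid plexus genes, and 3 per other list by smallest p. Exceptions chosen after their values were seen are undetected genes and second probes. Alternatives changed background, offset, normalisation, filter, variance model, weights, probe summary and deposited table, blocked on replicate number or omitted each array in turn. The labels call samples biological replicates, and their number limits the precision.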

Additional observations from a re-analysis of the deposited data

Results flagged for a closer look

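Among 102 sets of 4 Dusp8-deficient arrays examined with Dixon's criterion, 3 held an array far from the others, where chance gives about 1 in 20, or 5.1. No probe of the 6 genes was among them. Tekt1, an ependymal cilium gene, was at 5.99 log2 units in ko_168 against 4.97 to 5.10 in the others, and ko_168 was also the Dusp8-deficient array with the highest Ttr. Tbx19, a pituitary transcription factor, was at 6.02 in ko_125 against 4.22 to 4.33. Those low values were -2, 1 and 2 units in ko_108, ko_148 and ko_168, below background, so their closeness is that of background. The control wt_145 was at 6.06. Gpr37, an oligodendrocyte gene, was at 5.56 in ko_148 against 5.84 to 5.88. The 3 controls were too few to examine.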

How the results depend on the processing

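No probe of the 6 genes passed under any alternative run. No probe at all passed (0, with 523 to 1204 at an unadjusted p below 0.05 in limma) without the filter on dim probes, without moderation of the variance, in the processed values of replicates 1 to 3 with or without the replicate number as a block, or without any 1 of ko_148, ko_168, wt_136, wt_145 and wt_177. The Dusp8 log2 difference was -2.52, -2.52, -2.60 and -2.60 in the first 4 of these settings. With any 1 of the 7 arrays left out it was -2.64 to -2.37, with 0 to 1 probes passing. In the processed values of replicates 1 to 3, Clic6 read -0.13 and the brighter Kl probe 0.014, with the replicate block and without it. These settings leave out the last Dusp8-deficient replicate, and without ko_168 Clic6 read -0.12 and that Kl probe 0.013. Array headings carry no replicate number, and whether ko_168 is that replicate was not tested. Samples that share a replicate number had nearly uncorrelated deviations from their group means (correlations -0.07, 0.07 and -0.00067). Whether the numbers pair the samples in another way was not tested. With 1 array left out, Ttr ran from -0.0049 to 1.03, Calml4 from -0.061 to 0.18, Clic6 from -0.12 to 0.31, the Kl probes from -0.13 to 0.013 and from -0.15 to 0.19, the count of higher genes among the 4 from 1 to 3 and their median from -0.01 to 0.18. Of the other choroid plexus genes, 20 of 36 were higher without the filter and 4 of 8 among genes detected in all arrays, since the genes tested differ, and 7 to 14 of 18 with 1 array left out, with medians from -0.064 to 0.26. The correlation of Ttr with Kl was -0.62 with median scaling and -0.95 to -0.90 with 1 array left out, that with Calml4 0.59 to 0.89 (exact permutation p = 0.0125 without ko_108) and that with Clic6 -0.048 to 0.49. For the other lists, 487 of 530 counts and medians stayed within 1.5 times or 1 SD, and 43 did not. Signal near background limits what can be seen for Calml4, Folr1 and the dimmer Kl probe.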

Other observations

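The order of the 7 arrays by deposited Clic6 signal was shared exactly by 20 of 6541 tested genes without tied signals, chosen after their values were seen. Among them were Slc4a2, an anion exchanger of the choroid plexus list, and Fpgs of the folate list. For Kl 4 genes shared the order, and for Ttr 0 did. Calml4 has tied signals, so its order was not compared. Deposited signals are not normalised, so array brightness and expression cannot be told apart in these orders. In normalised values the Clic6 order differed, with ko_125 (5.72) below wt_177 (5.96).

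The cell type lists gave these counts of higher genes in Dusp8-deficient mice, with none passing (limma) and 49.6% of all tested genes higher. They were 3 of 10 for ependymal cells, 4 of 11 for tanycytes, 11 of 16 for meningeal fibroblasts, 16 of 17 for oligodendrocytes and myelin, 9 of 13 for astrocytes, 9 of 16 for neurons, 4 of 12 for endothelium and pericytes, 3 of 5 for pituitary and 2 of 3 for red blood cells. Without ko_108 the counts were 12 of 17 for oligodendrocytes (median log2 difference 0.17 from 0.42), 5 of 16 for neurons, 6 of 11 for tanycytes (median 0.16 from -0.31) and 6 of 13 for astrocytes. The neuron count was also 5 without wt_136 and 6 without ko_168. The ependymal count was 2 without any 1 of ko_108, ko_148, ko_168 and wt_136, and the pituitary count 2 without ko_125 or wt_177. The endothelial count was 10 of 12 without wt_177, 8 without ko_125 and 7 without ko_148, and the tanycyte count 2 without ko_125. At an unadjusted p below 0.05, 1 gene each was counted in the tanycyte, meningeal, oligodendrocyte, astrocyte, neuron and pituitary lists and 0 in the others, beside 4.45% of all tested genes. The genes of smallest p in each list had these log2 differences. Ependymal genes were Mia at -0.32, Pifo at 0.34 and Tekt1 at 0.32. Tanycyte genes were Vcan at -0.58, Crym at -0.55 and Gpr50 at -0.55. Meningeal genes were Col1a2 at 0.47, Ogn at 0.50 and Igfbp2 at 0.94. Oligodendrocyte genes were Gpr37 at 0.65, Gjc3 at 0.69 and Mobp at 0.89, and astrocyte genes Ppp1r3c at 0.52, Fgfr3 at -0.61 and Slc1a2 at 0.59. Neuron genes were Celf4 at 0.58, Elavl3 at 0.39 and Elavl4 at -0.49. Vascular genes were Pecam1 at -0.42, Flt1 at 0.70 and Kcnj8 at 0.30. In the pituitary list Tbx19 read -0.47 and Chga -0.25, and Tshb 1.42 (SE 0.58, adjusted p = 0.996, limma). Its groups overlapped, at -5, 83, 39 and 135 units in ko_108, ko_125, ko_148 and ko_168 and 6, 7 and 2 in the controls, where it was not above background, so it entered the test through the Dusp8-deficient arrays. Haemoglobin genes were Hbb-bt at 0.42, Hbb-b2 at 0.26 and Hba-a1 at -0.11. Pifo, Hbb-bt and Hbb-b2 were each detected in 3 Dusp8-deficient arrays and 1 control, so they too entered the test through the Dusp8-deficient arrays. Fgfr3, at -0.61, was detected in 2 Dusp8-deficient arrays and 3 controls, so it entered through the controls.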
